A study of Mus musculus with 3 samples.

Results

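The fibrillar collagen chains are the products of Col1a1, Col1a2, Col2a1, Col3a1, Col5a1, Col5a2, Col5a3, Col11a1 and Col11a2, and they were followed across the cells of the mouse patellar tendon at 2 ages. They were chosen by symbol, as the rows carrying 1 of these names in each of the 3 count matrices, which gave 9 of 32288 features, and all 9 had UMIs in every library. Cells of the patellar tendon were freed with collagenase, sorted to leave out blood and endothelial cells, and profiled with a droplet 3' kit that tags each captured mRNA molecule with a unique molecular identifier (UMI). All mice were labelled WT, that is wild type; 1 library came from mice aged 2 weeks and 2 libraries, named 20-week replicates 1 and 2, from mice aged 20 weeks. The labels name no treatment and no number of animals per library, so the spread behind the p-values may be technical. That spread comes from the pair of 20-week libraries and is pooled in part or in whole over genes. The single 2-week library has no replicate and adds nothing to it.

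Fibrillar collagens are secreted as rods of 3 chains wound into a triple helix and are packed side by side into fibrils, which carry the load in tendon. Type I collagen, usually a pair of Col1a1 chains with a Col1a2 chain, makes up the bulk of a tendon fibril, and type III, made of Col3a1 alone, is mixed into thin and young fibrils. Type V (Col5a1, Col5a2 and the less common Col5a3) and type XI (Col11a1 and Col11a2, joined in cartilage by Col2a1 products) are minor collagens that start fibrils and hold down their width. Col2a1 encodes type II collagen, the main fibril of cartilage. Chains of types V and XI can be built into the same trimers, so the balance of Col5a1, Col11a1 and Col5a2 is of interest beside that of Col1a1 and Col1a2.

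Positions are from GENCODE on GRCm38, the same assembly as mm10. Col1a1 (ENSMUSG00000001506) is on chromosome 11 from 94936224 to 94953042 and Col1a2 (ENSMUSG00000029661) on chromosome 6 from 4504814 to 4541544, both on the plus strand. Col3a1 (chromosome 1, 45311538 to 45349706, plus strand) and Col5a2 (45374321 to 45503282, minus strand) face each other tail to tail with 24614 bases between them. Col5a1 is on chromosome 2 (27886425 to 28039514, plus strand), Col5a3 on chromosome 9 (20770050 to 20815067, minus strand) and Col2a1 on chromosome 15 (97975602 to 98004695, minus strand). Col11a1 is on chromosome 3 (114030540 to 114220718, plus strand) and Col11a2 on chromosome 17 (34039437 to 34066685, plus strand). The annotated genes have 51 to 67 exons in their first-listed transcript. Col5a1 overlaps 2 annotated minus-strand transcripts, 2810430I11Rik and Gm13372, and whether the authors' counting used strand is not given in the sources used here.

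Of the 9 chains, 6 matched the table of promoter sequences from RefSeq (build GRCm38.p6). The 150 bases before the start site are shown for 4 chains, because Col3a1 and Col5a1 fell with age in progenitor-like cells, Col5a3 did not pass that test, and Col11a1 sets tenocyte-like cells apart from progenitor-like cells. Each is written 5' to 3' on the strand of its gene, with a match to CCAAT or TATAAA on either strand in capitals.
Col3a1 (chr1:45311388-45311537, plus strand): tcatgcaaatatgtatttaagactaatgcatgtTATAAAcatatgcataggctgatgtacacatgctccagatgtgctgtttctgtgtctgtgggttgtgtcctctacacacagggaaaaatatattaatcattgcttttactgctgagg
Col5a1 (chr2:27886275-27886424, plus strand): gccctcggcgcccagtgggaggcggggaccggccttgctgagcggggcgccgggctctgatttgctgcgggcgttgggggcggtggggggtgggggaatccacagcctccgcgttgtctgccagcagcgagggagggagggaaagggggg
Col5a3 (chr9:20815068-20815217, minus strand): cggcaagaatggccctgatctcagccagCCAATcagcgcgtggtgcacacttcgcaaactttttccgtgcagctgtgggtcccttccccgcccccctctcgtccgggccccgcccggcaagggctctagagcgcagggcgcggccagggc
Col11a1 (chr3:114030390-114030539, plus strand): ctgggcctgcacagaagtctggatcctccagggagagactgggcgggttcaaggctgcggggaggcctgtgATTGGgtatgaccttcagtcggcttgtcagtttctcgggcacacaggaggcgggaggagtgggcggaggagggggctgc
CCAAT, which is read on the other strand as ATTGG, was found in the Col5a3 window, 122 bases before the start site, and in the Col11a1 window, 79 bases before it. The TATAAA match of Col3a1 began 117 bases before its start site, and the Col5a1 window held neither motif. The Col3a1 window was 37.3% G or C, against 74.7% for Col5a1, 68.7% for Col5a3 and 64.7% for Col11a1. Of 32851 promoters in the table, 24.5% held CCAAT and 7.57% held TATAAA in a window of the same length. No window shown held more than 1 match, so no matches overlapped. A match describes the letters only. Col11a2 and Col1a2 also matched the table; 125 bases of the Col1a2 window lie in an exon of the GENCODE annotation. Col1a1, Col2a1 and Col5a2 are the other members.

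After filters on barcodes 4931, 607 and 1013 cells were used, with 34296462, 1789436 and 5569619 UMIs and a median of 6543, 2825 and 5132 UMIs per cell. At most 3 cell barcodes were shared by any pair of libraries. Clusters were made without the 9 chains and named by marker genes, and 9 of 22 clusters stayed unnamed. Clusters named chondrocyte-like and osteogenic-like held cells of the 2-week library alone, and the progenitor-like class drew on different clusters at the 2 ages. Endothelial markers were nearly absent, and 7 of them summed to 3.35 to 18.3 per 1000000 UMIs (CPM). B-lineage markers stood at 685 CPM in 20-week replicate 2 and at 10.4 and 4.47 in the other 2 libraries, and in that replicate 66 of the 69 cells of cluster 14 held Cd79a, a B-cell receptor component. Erythroid markers summed to 155, 7.82 and 50.3 CPM. In the order of the 2-week library and 20-week replicates 1 and 2, marker sums were 563.8, 12.3 and 4932 CPM for muscle fibres, 540.6, 4916 and 2776 for synovial lining fibroblasts, 10087, 2894 and 373.8 for mural cells and 610, 162.1 and 80.1 for chondrocytes. Osteogenic markers summed to 78, 367.2 and 151.7 CPM in the same order, so they were higher in both 20-week libraries. Unnamed cluster 19, of 20-week replicate 2, had Ibsp and Spp1 among its leading genes, as did the osteogenic-like cluster. Their part in the results over all cells was not tested, and results within classes do not draw on cluster 14.

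At 2 weeks type I collagen was highest in tenocyte-like and osteogenic-like cells among the named classes. Levels are in CPM, the UMIs of a gene in a class scaled to a total of 1000000; in 3' data a transcript gives 1 tag whatever its length, though capture can differ between genes. Col1a1 stood at 80949 in tenocyte-like cells and 75811 in osteogenic-like cells, then at 11676 in progenitor-like and 9884 in chondrocyte-like cells, and at 1286, 969.9 and 480.2 in Schwann-like, mural-like and myogenic-like cells. Col1a2 followed at 55704, 47995, 10978, 7610, 1338, 822.4 and 330.4 in the same order. The tenocyte-like class joined cluster 4 (leading genes Angptl7 and Kera), with 97803 for Col1a1, and cluster 6 (Tnmd), with 25123, so cells given the same name differed 3.9-fold in this chain. For both type I chains together, cluster 4 had 165361 and cluster 6 had 41561. Unnamed clusters 8 (20 cells), 17 and 0 had 51758, 33679 and 30816, so cluster 6 did not stand apart from unnamed cells. Together the 9 chains took 14.2% of all UMIs in tenocyte-like cells, 13.1% in osteogenic-like, 4.51% in progenitor-like, 3.19% in chondrocyte-like and 0.417% in mural-like cells. As there is 1 library of this age, these orders have no replicate check, and neighbours in them are told apart by counting error alone.

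Type III collagen followed another order. Among the named classes Col3a1 was highest in progenitor-like cells at 19416 CPM. It stood at 2928 in Schwann-like, 2010 in chondrocyte-like, 1983 in mural-like, 1818 in tenocyte-like, 1427 in osteogenic-like and 955.6 in myogenic-like cells. The high level was not particular to progenitor-like cells, as unnamed cluster 11 had 19446 and unnamed cluster 0 had 14421. Schwann-like, mural-like and myogenic-like cells had more Col3a1 than Col1a1, as did progenitor-like cells. Unnamed cluster 12 (187 cells, led by Fabp4, Nrgn and Nrip2) went the other way, with 1139 Col1a1 against 270 Col3a1 UMIs. With stricter cell filters a cluster with the same leading genes was named mural-like. Col3a1 made up 46.2% of type I plus type III UMIs in progenitor-like cells, with an exact 95% binomial (Clopper-Pearson) interval of 46.0% to 46.3%. The same share was 52.5% in mural-like, 10.3% in chondrocyte-like, 1.31% in tenocyte-like and 1.14% in osteogenic-like cells, and 12.9% in cluster 12. In the other unnamed clusters of this library it ran from 16.35% in cluster 8 to 46.6% in cluster 11. Such intervals, here and below, cover counting error only.

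**Figure D1:**
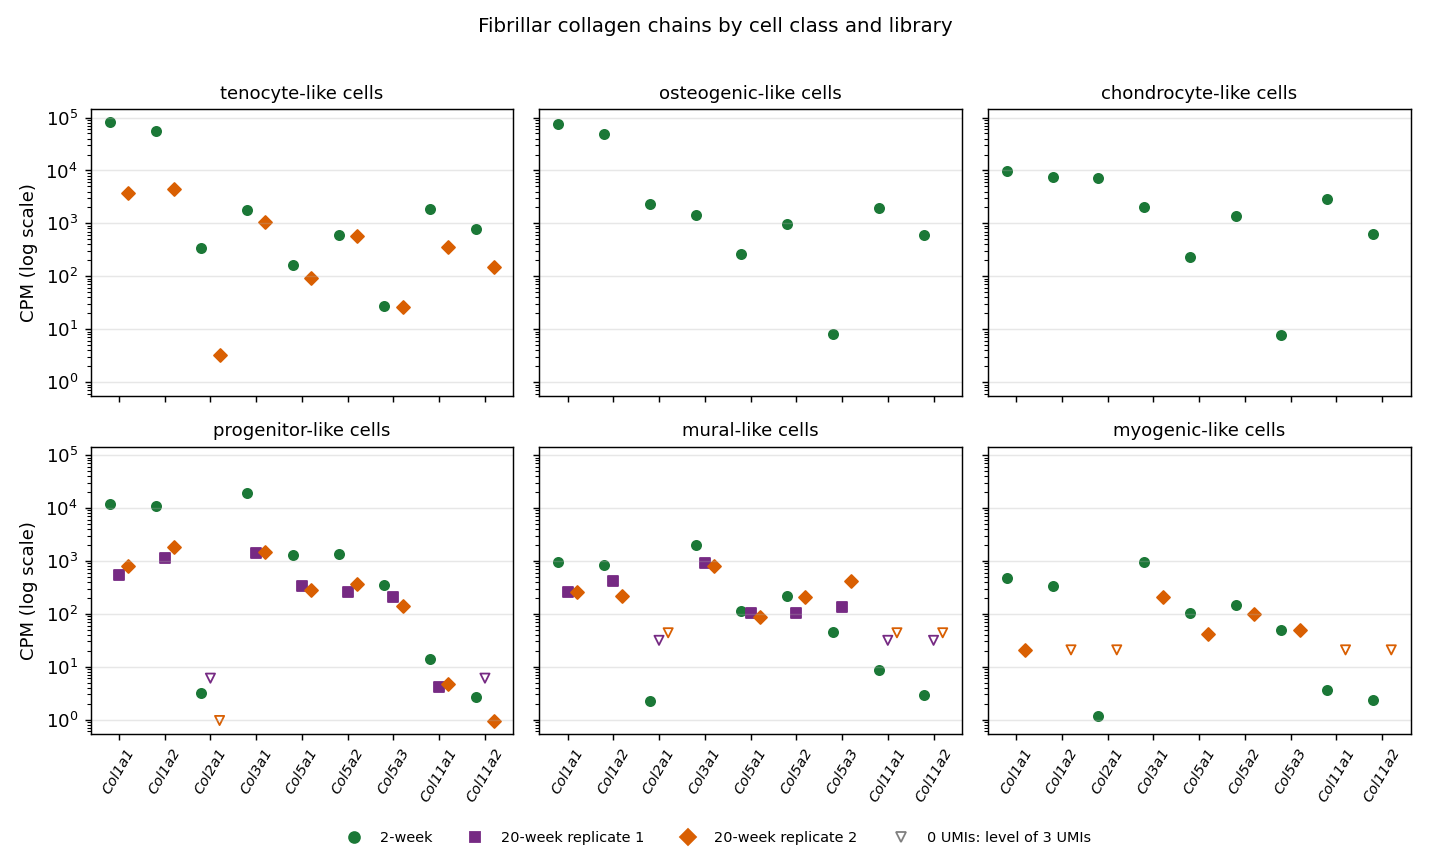
Level of each fibrillar chain in CPM (vertical log axis) in 6 cell classes, with 1 point per library; open triangles mark chains with 0 UMIs at the level that 3 UMIs would give. Tenocyte-like and osteogenic-like cells are highest for Col1a1 and Col1a2 at 2 weeks, progenitor-like cells are highest for Col3a1, and the 20-week points of Col1a1 lie below the 2-week point in each class that has both.

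The minor chains also differed between the classes. Col11a1, which encodes the first chain of type XI, stood at 2942 CPM in chondrocyte-like, 1921 in osteogenic-like and 1831 in tenocyte-like cells of the 2-week library, and at 14.3 in progenitor-like and 8.74 in mural-like cells. Col5a1, its counterpart in type V, was highest in progenitor-like cells at 1286, with 232.2, 266.5 and 161.1 in the first 3 classes, 112.2 in mural-like and 103.4 in myogenic-like cells. Col11a1 held 92.7% of Col5a1 plus Col11a1 UMIs in chondrocyte-like, 91.9% in tenocyte-like and 87.8% in osteogenic-like cells, but 7.23% in mural-like and 1.10% in progenitor-like cells. Cluster 4 of the tenocyte-like class reached 95.3% and cluster 6 76.6%. Unnamed clusters ran from 2.23% in cluster 11 to 66.3% in cluster 8, with 3.23% in cluster 7, 17.65% in cluster 12 (from 34 UMIs), 21.2% in cluster 0, 24.2% in cluster 17, 35.9% in cluster 14 and 61.5% in cluster 5. Col5a2 spread over a narrower range, from 602.8 in tenocyte-like to 1398 in chondrocyte-like cells among the 4 classes rich in collagen. Col5a1 took 48.6% of Col5a1 plus Col5a2 UMIs in progenitor-like cells (47.8% to 49.3%), where the 2 chains were nearly level, and 21.4% in osteogenic-like, 21.1% in tenocyte-like and 14.3% in chondrocyte-like cells.

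Col11a2, the second chain of type XI, kept below Col11a1 in these classes, with 641.8, 607.9 and 791.7 CPM in chondrocyte-like, osteogenic-like and tenocyte-like cells. Its share of Col11a1 plus Col11a2 UMIs was 17.9% (16.9% to 18.95%), 24.0% (22.4% to 25.8%) and 30.2% (29.5% to 30.9%), so it was largest in the tenocyte-like class. Col2a1 was led by chondrocyte-like cells at 7201 CPM, with 2357 in osteogenic-like and 347.7 in tenocyte-like cells and 3.15 in progenitor-like cells. A Col2a1 UMI was found in 93.2% of chondrocyte-like and 76.1% of tenocyte-like cells, but in 1.88% of progenitor-like and 1.18% of mural-like cells of the same library, and after thinning each cell to 1000 UMIs the first 2 shares were 82.5% and 22.2%. The median depths of these 4 classes were 5915, 7939, 7354 and 7037 UMIs. Col5a3, the rarest type V chain in progenitor-like cells, stood at 348.7 in progenitor-like cells and 27.1, 8.11 and 7.85 in tenocyte-like, osteogenic-like and chondrocyte-like cells. Within the mural-like class it was at 191.2 in cluster 9, led by the pericyte genes Rgs5 and Kcnj8, and at 6.09 in cluster 3, whose leading genes are of smooth muscle.

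**Figure D2:**
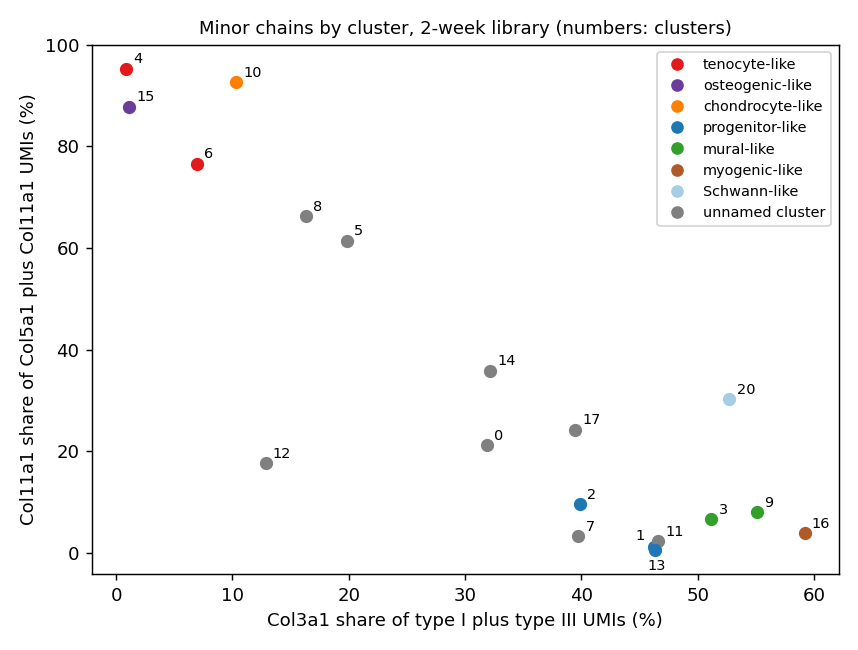
Each point is a cluster of the 2-week library; the horizontal axis is the Col3a1 share of type I plus type III UMIs in percent, and the vertical axis the Col11a1 share of Col5a1 plus Col11a1 UMIs in percent. Tenocyte-like, osteogenic-like and chondrocyte-like clusters sit at the upper left, with Col11a1 shares from 76.6% to 95.3%, and the progenitor-like and mural-like clusters at the lower right.

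The balance of the type I chains moved with both cell class and age. A ratio of 2 Col1a1 to 1 Col1a2 chains would be a Col1a1 share of 66.7% of type I UMIs. At 2 weeks no cluster with at least 100 type I UMIs reached it: over 20 clusters the share ran from 49.0% to 63.3%. The highest was cluster 16 of the myogenic-like class, with 430 type I UMIs. By class it was 61.2% in osteogenic-like cells (61.0% to 61.5%), 59.2% in tenocyte-like (59.1% to 59.3%) and 59.2% in myogenic-like cells (55.4% to 63.0%, from 682 type I UMIs). It was 56.5% in chondrocyte-like (55.9% to 57.1%), 54.1% in mural-like (53.1% to 55.2%), 51.5% in progenitor-like (51.3% to 51.8%) and 49.0% in Schwann-like cells (43.2% to 54.8%). A high share was thus also found in a class low in type I collagen. The interval of Schwann-like cells overlapped those of mural-like and progenitor-like cells, and that of myogenic-like cells overlapped those of osteogenic-like, tenocyte-like and chondrocyte-like cells. Unnamed cluster 12, whose leading genes marked a mural-like cluster under stricter cell filters, had 62.2% (60.0% to 64.5%). With the level of cluster 16, the lowest of this library, subtracted as free RNA, the mural-like share was 48.4% and the progenitor-like share 51.2%, so their order turned.

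At 20 weeks Col1a2 outnumbered Col1a1. Over all cells the Col1a1 share was 57.6% at 2 weeks and 38.4% (37.1% to 39.7%) and 36.3% (35.6% to 37.1%) in 20-week replicates 1 and 2. In progenitor-like cells it was 51.5% at 2 weeks and 31.6% (28.5% to 34.9%) and 29.8% (28.8% to 30.8%) at 20 weeks. In tenocyte-like cells it went from 59.2% to 45.5% (43.6% to 47.5%) in replicate 2, the 20-week library with enough of these cells. Mural-like cells had 65 and 33 type I UMIs at 20 weeks, and their shares of 38.5% (26.7% to 51.4%) and 54.6% (36.4% to 71.9%) against 54.1% show no difference in replicate 2 at this depth. With cells classed by their marker sums, replicate 2 had 54.4% (49.8% to 59.0%) from 465 type I UMIs in this class, against 54.7% (53.6% to 55.8%) at 2 weeks. With 1 library against 2, a permutation test of a share could not fall below the threshold, so none was made, and the difference between the age changes of the 2 chains has no test over libraries.

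The lower share at 20 weeks was found inside single clusters too. In 5 clusters with at least 100 type I UMIs at both ages there were 9 pairs of a cluster and a 20-week library, and in all 9 the 20-week interval lay below the 2-week one. The differences ran from -12.02 to -21.5 percentage points, 20-week minus 2-week. Cluster 2, a progenitor-like cluster, had 51.2% at 2 weeks and 30.9% and 29.7% at 20 weeks, though its 2-week value came from 21 cells. Cluster 0, an unnamed cluster led by Igfbp3 and Sfrp2, had 54.7% against 39.2% and 39.8%, and cluster 11, an unnamed cluster led by Mmp3 and Lpl, had 56.3% against 40.9% and 38.2%. Cluster 8, led by Lgals7, Comp and Chad and also unnamed, had 59.4% from 20 cells against 38.7% and 47.4%, and cluster 6 of the tenocyte-like class had 60.5% against 45.6% in replicate 2.

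**Figure D3:**
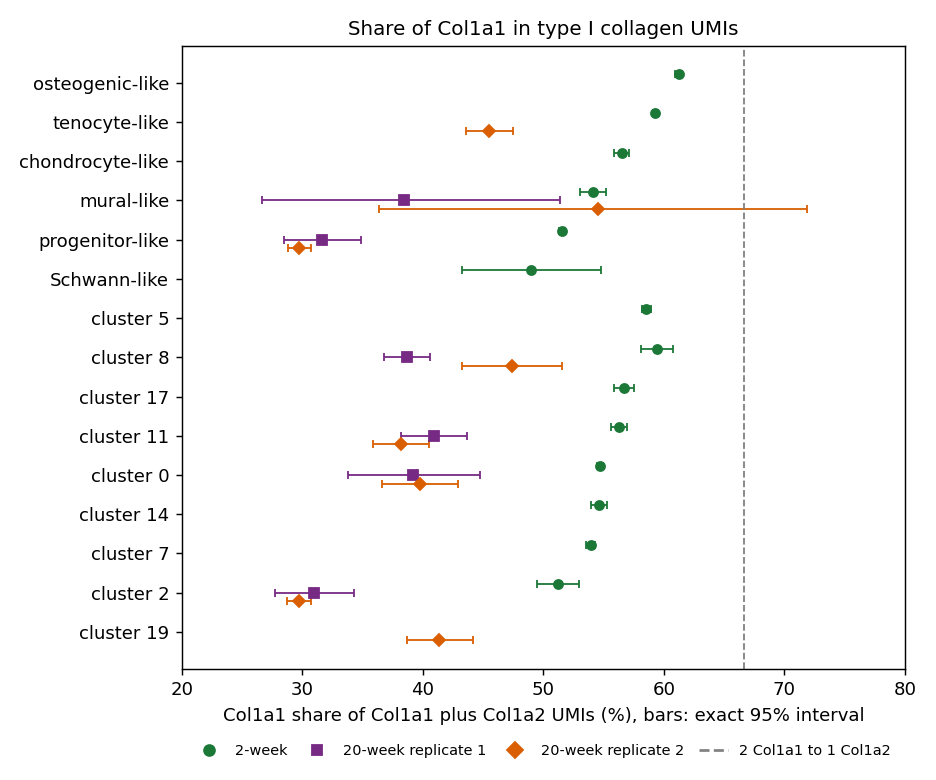
Col1a1 share of Col1a1 plus Col1a2 UMIs in percent (horizontal axis) by cell class and for selected clusters, with 1 point per library and exact 95% intervals; the dashed line marks 2 Col1a1 to 1 Col1a2. Myogenic-like and muscle fibre-like cells are not drawn. The 2-week points lie between 49.0% and 61.2%, and in each row with both ages the 20-week points lie to the left of the 2-week point, save that of mural-like cells in replicate 2.

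Within a library, cells with less type I collagen tended to a lower Col1a1 share, so the ages were set side by side at matched type I level, a comparison chosen after the data had been seen. The ranges pooled cells of all classes, so a matched level does not match the cell type. Type I collagen stood at 1792 CPM in mural-like cells at 2 weeks, and at 1681 and 2654 in progenitor-like cells at 20 weeks. Among cells with 20 to 50 type I UMIs per 10000 of their UMIs, the share was 50.7% in 300 cells of the 2-week library, 36.3% in 178 cells of 20-week replicate 1 and 30.7% in 307 cells of replicate 2. Among cells with 100 to 300 per 10000 it was 53.6%, 42.3% and 44.7%. In the 2-week library the share rose from 51.0% at 50 to 100 per 10000 to 59.4% above 1000, and in replicate 2 from 28.8% at 10 to 20 to 44.7% at 100 to 300. Below these ranges there was no steady rise. The 2-week share was 52.3% at 5 to 10 and 52.4% at 10 to 20, and that of replicate 2 was 33.3% at 2 to 5. The 20-week intervals lay below the 2-week ones in the 5 ranges from 5 to 300 per 10000, and at 2 to 5 per 10000, with 49 and 63 type I UMIs at 20 weeks, they overlapped.

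Per cell, among cells with at least 10 type I UMIs, the median share was 55.7% at 2 weeks (4200 cells), 38.5% in 20-week replicate 1 (169 cells) and 33.3% in replicate 2 (501 cells). More Col1a2 than Col1a1 was counted, or a share under 50%, in 24.9%, 73.4% and 83.4% of these cells. In tenocyte-like cells the part under 50% was 3.33% at 2 weeks and 60.7% in replicate 2, and in progenitor-like cells 38.9% and 92.3%. Median type I counts per such cell were 130 at 2 weeks and 17 and 20 at 20 weeks, so single-cell shares at 20 weeks scatter more from counting alone.

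**Figure D4:**
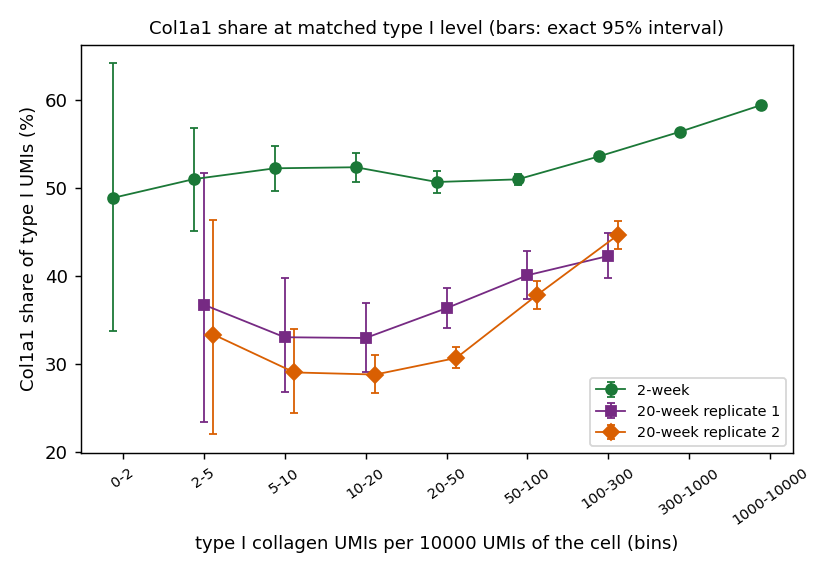
Col1a1 share of type I UMIs in percent (vertical axis) for cells binned by their type I UMIs per 10000 (horizontal axis), with 1 line per library and exact 95% intervals. Both 20-week lines run below the 2-week line, from 28.8% to 44.7% against 50.7% to 53.6% over the ranges from 5 to 300 per 10000.

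Over all cells, Col11a2 was the 1 chain of 9 that fell with age by edgeR's quasi-likelihood test, while 8 of 9 had an unadjusted p under 0.05. Of all 13313 genes tested 0.188% were called, and 1135 had an unadjusted p under 0.05. Col11a2 had 192.4 CPM in the 2-week library and 5.03 and 8.98 in the 20-week libraries (log2 fold change -4.75, SE 0.47, adjusted p = 0.0241). Col1a1 went from 24647 to 1167 and 1055 (log2 -4.42, SE 0.90, adjusted p = 0.195), Col1a2 from 18119 to 1874 and 1849 (log2 -3.24, SE 0.84) and Col3a1 from 9544 to 1677 and 1287 (log2 -2.62, SE 0.80), and none of these passed. Col5a3 had 175.8 CPM against 217.9 and 109.0, and for the other chains both 20-week libraries lay below the 2-week library. The share of all genes that lay so was not counted, so this pattern has no background to be read against. Col2a1 was left with 6 and 1 UMIs at 20 weeks, against 16066. By DESeq2, 5 of the 9 chains passed, all lower (Col1a1, Col1a2, Col3a1, Col11a1 and Col11a2), where 1.63% of 12430 genes were called. With no filter on low counts 4 passed by edgeR (Col1a1, Col2a1, Col11a1 and Col11a2), where 3.15% of 20967 genes were called. With stricter cell filters edgeR called 0% of 13207 genes. There 6 chains and 997 of all genes had an unadjusted p under 0.05, and Col11a2 had a log2 change of -5.38 with an adjusted p of 0.145. In sums over all cells, fewer cells of a type and less RNA per cell cannot be told apart. Without the clusters that 1 age filled no chain passed by edgeR, where 0.0695% of 12956 genes were called. There 8 of 9 chains had an unadjusted p under 0.05, as did 1143 of all genes.

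In progenitor-like cells, fibroblasts whose clusters were named by Pi16 with Cd55 or Dpp4, 5 of 7 tested chains fell with age, where 4.01% of all 11294 genes were called. Col1a1 had 11676 CPM against 531.2 and 789.7 in the 20-week libraries (log2 -4.12, SE 0.74, adjusted p = 3.12e-06). Col3a1 had 19416 against 1417 and 1449 (log2 -3.72, SE 0.77, adjusted p = 0.000104). Col1a2 had 10978 against 1149 and 1864 (log2 -2.84, SE 0.72, adjusted p = 0.0036). The 2 major type V chains fell too: Col5a2 had 1362 against 255.4 and 373.8 (log2 -2.08, SE 0.60, adjusted p = 0.0183), and Col5a1 1286 against 332.5 and 281.0 (log2 -2.02, SE 0.60, adjusted p = 0.0234). The 5 chains were picked by this test on the same values, so their lower values in both 20-week libraries add no support. The share of all genes lower in both was not counted.

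Col5a3 did not pass in progenitor-like cells, with 348.7 CPM against 206.8 and 141.9 (log2 -0.95, SE 0.56, adjusted p = 0.605), nor did Col11a1, with 14.3 against 4.06 and 4.82 (log2 -1.63, SE 0.75, adjusted p = 0.345), though it passed with clusters made at resolution 1.0 (adjusted p = 0.0305 by edgeR). Col2a1 and Col11a2 were left out by the filter on low counts. Type V UMIs were thus a larger part of type I plus type V at 20 weeks, 32.1% (29.5% to 34.8%) and 23.1% (22.3% to 23.9%) against 11.7% (11.5% to 11.8%), and Col5a3 took 26.02% and 17.8% of type V UMIs against 11.6%. The Col3a1 share of type I plus type III was 46.2% at 2 weeks and 45.8% (43.2% to 48.3%) in replicate 1, whose intervals overlap, but 35.3% (34.5% to 36.2%) in replicate 2. The class held clusters 1 and 13 at 2 weeks (690 and 194 of 905 cells) and cluster 2 at 20 weeks (154 of 158 and 484 of 490 cells). With the 9 chains among the genes that formed the clusters, 1 chain passed, Col1a1 (log2 -3.48, adjusted p = 0.0442), where 2.25% of 11489 genes were called by edgeR. Col1a2, Col3a1, Col5a1 and Col5a2 had log2 changes of -2.46, -3.03, -1.89 and -1.64 there, with adjusted p-values of 0.209, 0.143, 0.169 and 0.28.

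**Figure D5:**
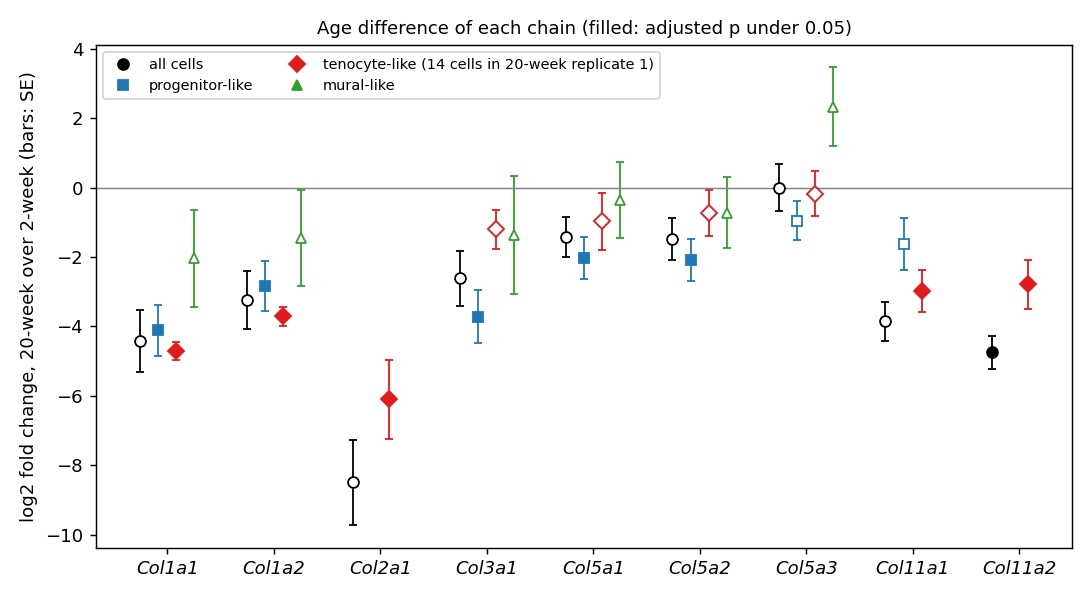
Log2 fold change of each chain, 20-week over 2-week, with its standard error, in all cells and 3 cell classes; filled points passed edgeR's test at an adjusted p under 0.05. Progenitor-like points are filled for Col1a1, Col1a2, Col3a1, Col5a1 and Col5a2, tenocyte-like points for Col1a1, Col1a2, Col2a1, Col11a1 and Col11a2, and Col5a3 is filled in none.

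In tenocyte-like cells the test could not be run as designed, because 20-week replicate 1 held 14 such cells and 20 were required. Between the 2-week library and replicate 2 (661 and 77 cells), Col1a1 went from 80949 to 3744 CPM, a log2 ratio of -4.43, and Col1a2 from 55704 to 4481, a log2 ratio of -3.64. Col11a1 went from 1831 to 363.6 (log2 -2.33) and Col11a2 from 791.7 to 150.7 (log2 -2.39), and Col11a2 took 30.2% (29.5% to 30.9%) and 29.3% (22.3% to 37.1%) of the UMIs of both. Col5a2 stood at 602.8 and 579.8, Col5a1 at 161.1 and 91.7, Col5a3 at 27.1 and 26.2, and Col3a1 at 1818 and 1071 (log2 -0.76). Col3a1 was thus 1.31% of type I plus type III UMIs at 2 weeks and 11.5% (10.4% to 12.8%) in replicate 2, and type V went from 0.576% to 7.82% of type I plus type V. Col2a1 was at 347.7 at 2 weeks and 1 UMI was counted in replicate 2. Cluster 4, the richest in type I collagen, held 446 cells at 2 weeks and 8 and 1 at 20 weeks, so the class in replicate 2 was cluster 6 but for 1 cell. Within cluster 6 alone (215 and 76 cells) the log2 ratio of Col1a1 was -2.75, that of Col1a2 -1.88, that of Col3a1 -1.54 and that of Col11a1 -1.71. Col5a1 went from 365.2 to 92.3 CPM there, Col5a2 from 928.4 to 583.3 and Col5a3 from 54.1 to 26.4. The Col3a1 share of type I plus type III in cluster 6 went from 6.94% to 11.5%, and the type V share of type I plus type V from 3.14% to 7.89%.

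Fits of this class that include replicate 1 were added after the data had been seen. With its 14 cells, 5 of 9 chains fell by edgeR (Col1a1, Col1a2, Col2a1, Col11a1 and Col11a2), where 3.97% of 6123 genes were called. With the 9 chains among the clustering genes, which put 245 cells of replicate 1 in the class, the same 5 chains fell and 4.34% of 7964 genes were called. Of those 245 cells 235 were of a cluster led by Lgals7, Mt4 and Comp that held 20 cells at 2 weeks, while 449 and 216 of the 685 cells at 2 weeks were of 2 clusters led by Angptl7 and by Tnmd. Col1a1 had log2 changes of -4.70 (SE 0.26) and -5.34 (SE 0.83), and Col11a1 of -2.97 and -3.57. Col3a1 did not pass in either fit (log2 -1.20 and -1.19, adjusted p = 0.297 and 0.682), and Col5a1, Col5a2 and Col5a3 did not pass.

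In mural-like cells, which wrap small vessels, none of 6 tested chains passed the age test by edgeR or by DESeq2, and 1 had an unadjusted p under 0.05. Here 0.13% of 2316 genes were called by edgeR and 70 had an unadjusted p under 0.05, and the 20-week sums held 44 and 35 cells. Col3a1 had 1983 CPM against 904.3 and 803.3 in the 20-week libraries (log2 -1.36, SE 1.70), and Col1a1 969.9 against 262.9 and 262.9 (log2 -2.04, SE 1.39). With cells classed by their marker sums the fitted changes of Col1a1, Col1a2, Col5a1 and Col5a2 were above 0. Col5a3 ran the other way, at 45.6 CPM (219 UMIs) against 136.7 (13 UMIs) and 408.9 (28 UMIs), a log2 change of 2.33 (SE 1.13, adjusted p = 1 by edgeR). The 2-week class was mostly cluster 3 (464 of 678 cells), where Col5a3 is low, and the 20-week cells were mostly cluster 9 (27 and 34). Within cluster 9 Col5a3 had 191.2 against 271.0 and 426.1 (log2 0.91, SE 0.93, adjusted p = 1).

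The test of whether the age change differed between mural-like and progenitor-like cells called none of the 6 chains tested, with 1 at an unadjusted p under 0.05. Of 9661 genes in all 0.6% were called, and 546 had an unadjusted p under 0.05. The chain with an unadjusted p under 0.05 was Col5a3, with a difference of 2.94 on the log2 scale (SE 0.90, adjusted p = 0.125 by edgeR). Over all genes the median difference was -0.32, and -0.13 with edgeR's relative log expression (RLE) size factors.

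Single clusters with at least 20 cells of each library were tested as well, a choice made after the data had been seen. In cluster 0, 4 of 7 chains fell (Col1a1, Col1a2, Col3a1 and Col11a1), where 2.77% of 5420 genes were called, and Col1a1 had 16849 CPM against 1108 and 1145. By DESeq2 Col1a1, Col1a2, Col3a1 and Col5a1 (adjusted p = 0.0361) fell, where 6.55% of 824 genes were called, and Col11a1 was given no adjusted p. In cluster 2, 2 of 7 fell (Col1a1 and Col11a1), where 1.16% of 7151 genes were called, and by DESeq2 4 did (Col1a1, Col1a2, Col3a1 and Col5a2), where 0.774% of 6718 genes were called. Here Col3a1 had 14543 against 1417 and 1439 and just missed the threshold (log2 -3.21, SE 0.79, adjusted p = 0.0541 by edgeR). In cluster 8, 6 of 9 fell (Col1a1, Col1a2, Col2a1, Col3a1, Col11a1 and Col11a2), where 3.39% of 2946 genes were called, and Col11a1 had 1193 against 91.1 and 90.2. None passed in cluster 9 (6 tested, 0.192% of 1563 genes called) or in cluster 11 (6 tested, 2.12% of 4865 genes called) by edgeR or DESeq2, and 0 had an unadjusted p under 0.05 in either cluster by edgeR. In cluster 11 Col1a1 had 12527 against 1774 and 2656 (log2 -2.58, SE 1.72). Col5a1 and Col5a2 passed in none of these 5 clusters by edgeR, and Col5a3 did not pass in any fit shown here.

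Type I collagen was low but present in cells of other lineages, and these levels were taken as the background. In 20-week replicate 2, cluster 14, with its B-lineage cells, had 1 type I UMI among 503612, and muscle fibre-like cells had 20.5 type I CPM. A Col1a1 UMI was found in 1.20% of muscle fibre-like cells against 86.7% of progenitor-like cells of that library (median depths of 2400 and 6358 UMIs), and after thinning to 1000 UMIs in 0% of 83 cells against 46.1%. At 2 weeks the lowest type I level was 690.5 CPM, in cluster 16 of the myogenic-like class, of which 65.9% of cells had a Col1a1 UMI, or 16.3% after thinning. The level of 1792 in mural-like cells of that library is 2.6 times as high.

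The machinery that folds and finishes collagen was followed with a list of 59 genes. In progenitor-like cells 53 were tested, 9 fell and 0 rose, where 4.01% of all 11294 genes were called. The median log2 change of the list was -0.49, against 0.01 over all genes. Of 17 genes of folding and hydroxylation 5 fell: Serpinh1, the collagen chaperone (1278 to 290 and 273 normalized CPM, log2 -2.19, adjusted p = 0.00991), Fkbp10 (log2 -1.67) and Fkbp14 (adjusted p = 0.00288), prolyl isomerases of the endoplasmic reticulum, P3h1 (log2 -1.54), a prolyl 3-hydroxylase, and P4ha3 (log2 -1.74), a prolyl 4-hydroxylase subunit. Lox, the lysyl oxidase that cross-links fibrils, fell by 1.65 and was the 1 of 5 cross-linking genes to pass, and Tll1, a propeptide protease, fell by 2.35 as the 1 of 6 tested in its group. Among 11 fibril-binding proteins Sparc (log2 -2.47) and Kera (log2 -2.77) fell, and the median of that group was -0.02. None of 6 genes for export and transcript regulation and none of 4 for uptake and breakdown passed.

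In tenocyte-like cells, in the fit with 14 cells of replicate 1, 50 of the 59 genes were tested, 8 fell and 2 rose, where 3.97% of 6123 genes were called. The median of the list was -0.89, against -0.09 over all genes. Serpinh1 fell by 2.69 there too, as did the cross-linker Loxl2 (log2 -2.96), while among the fibril-binding proteins Kera (log2 -3.07) and Sparc (log2 -3.39) fell and the small proteoglycans Prelp (log2 5.07) and Dcn (log2 1.25) rose. With the 9 chains among the clustering genes the same 2 of that group fell, Prelp (log2 5.52) and Tnxb (log2 3.07), a tenascin, rose, and Dcn did not pass. In that fit 11 of 51 tested list genes fell and 4 rose, where 4.34% of 7964 genes were called. Among 16 tested genes of folding and hydroxylation 5 fell, while Colgalt2 (log2 4.83) and P4ha2 (log2 2.20) rose. Over all cells 3 of 58 fell, where 0.188% of 13313 genes were called. All 3 were chains of type IX collagen, which coats cartilage fibrils: Col9a1, Col9a2 and Col9a3, at 57.9, 40.8 and 103.8 normalized CPM at 2 weeks and under 1 in each 20-week library. In mural-like cells 16 were tested, 2 had an unadjusted p under 0.05, as did 70 of all 2316 genes, and none passed by edgeR.

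Across the 14 sums of a class and a library with at least 20 cells, the genes whose levels followed a chain most closely were partly its own partners. For Col1a1 the closest of 6816 genes was Col1a2 (Pearson r = 0.977 on log2 levels), then Fkbp10, Kdelr3, Rcn3 and Mfap2 (r = 0.946 to 0.961). For Col11a1 it was Col11a2 (r = 0.977), then Egfl6, Cybrd1, Wif1 and Ecrg4. Col3a1 and Col5a1 were in each other's lists (r = 0.930): Col3a1 was followed by Calu, Col5a1, Derl2, Clic1 and Canx, and Col5a1 by Col3a1, Bmp1, Fstl1, Pigt and Calu. These sums share 3 libraries and their depths, so the correlations are a description with no test.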

How the data were processed

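The deposited matrices hold UMI counts per gene and barcode. The authors ran Cell Ranger 6.1.2 and mm10, per the submitters' processing notes, and counting settings are not given in the sources used here. Barcodes with under 500 genes, under 1000 UMIs or over 10% mitochondrial UMIs were dropped. Doublet scores (scanpy 1.11.5) called 33, 2 and 2 barcodes, which were left out, a rate of 0.665%, 0.328% and 0.197% against 3.97%, 0.487% and 0.812% expected from loading, so doublets may remain. Clusters came from 2000 variable genes without the 9 chains, 30 principal components, 15 neighbours and Leiden at resolution 0.5 (python-igraph 0.11.9). A cluster took a name with at least 2 markers among its 10 leading genes and at least 3 detected, and names may differ from the study's. Cells are not replicates, so counts were summed per library and class (at least 20 cells) and tested with edgeR 4.0.16 (quasi-likelihood, TMM, filterByExpr, Benjamini-Hochberg threshold 0.05 over all genes). With 1 residual degree of freedom, the fit takes the single 2-week library to have the spread of the 20-week pair; in progenitor-like and mural-like cells the fit gave every gene the shared spread. The p and adjusted p of genes are from this fit unless DESeq2 1.42.0 is named. Levels are plain CPM (UMIs scaled to a total of 1000000), or TMM-scaled where called normalized, and log2 ratios between single libraries have no test. The scripts were tested on simulated data. The members, gene lists and markers were chosen with earlier results of these data known. Named were the 9 chains, the 5 genes most like 4 of them, and list genes past the age test in tenocyte-like cells; as that test could not be run, those of progenitor-like cells and of all cells, and some of an added tenocyte-like fit, are named instead, a choice made after the data were examined.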

Additional observations from a re-analysis of the deposited data

Results flagged for a closer look

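Col5a3 was higher in both 20-week libraries than in the 2-week library in mural-like cells and lower in both in progenitor-like cells. The difference between the 2 age changes was 2.94 on the log2 scale (SE 0.90), and its adjusted p of 0.125 in edgeR's fit across all genes did not pass. The mural-like class changed its make-up with age, from mostly cluster 3 to mostly cluster 9, and within cluster 9 the log2 change of Col5a3 was 0.91. The part of that shift in the difference was not tested.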

How the results depend on the processing

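Over all cells the count of chains past the age test, 1 as reported, became 5 with DESeq2 (202 of 12430 genes called), 4 with no filter on low counts (660 of 20967), 0 with stricter cell filters (0 of 13207, with Col11a2 at log2 -5.38) and 0 without the clusters of 1 age, a setting added later. In progenitor-like cells the count of 5 became 1 with the 9 chains among the clustering genes, 4 with no filter (Col1a2 lost, adjusted p = 0.0604 by edgeR), 4 with barcodes classed by marker sums (Col5a1 lost, adjusted p = 0.0602) and 6 at resolution 1.0 (Col11a1 gained, adjusted p = 0.0305). The counts in mural-like cells and in the test between classes were 0 under all alternatives run, and at resolution 1.0 the test between classes could not be run, as 1 class had enough cells. Col5a3 over all cells turned above 0 in edgeR with RLE size factors (log2 0.004), with thinned sums (0.093), with stricter cell filters (0.05) and without 20-week replicate 2 (0.48, against -0.90 without replicate 1), and passed in none. By DESeq2 it stayed below 0 (log2 -0.020). With barcodes classed by marker sums, Col1a1, Col1a2, Col5a1 and Col5a2 in mural-like cells turned to 0.46, 0.54, 0.74 and 0.42, without passing. The cause of these changes was not tested. The type I share over all cells at 2 weeks, 57.6%, was 55.6% with cells weighted equally, 57.5% after subtraction of free RNA and 57.4% with stricter filters; in 20-week replicate 2, 36.3% became 33.9% with cells weighted equally. Of 50 recomputed type I shares in the classes and over all cells, 20 moved outside the interval of the reported value. Subtraction of free RNA took mural-like cells at 2 weeks from 54.1% to 48.4%, below the 51.2% of progenitor-like cells, and progenitor-like cells of 20-week replicate 1 from 31.6% to 26.9%, where the level of mural-like cells of that library was the one subtracted. The log2 ratio of Col1a1 in tenocyte-like cells kept its sign in the 4 other fits. Without 20-week replicate 1 or 2 the log2 ratio of Col1a1 in progenitor-like cells was -3.98 or -4.36. No paired analysis was possible because the 2 ages share fewer than 2 replicate numbers. Mural-like cells at 20 weeks, with 65 or fewer type I UMIs per library, and 20-week replicate 1, with a median of 2825 UMIs per cell, limit what could be seen.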

Other observations

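Cluster 19, unnamed and led by Cytl1, Clu and Ibsp, was found in 20-week replicate 2 alone, with 45 cells. Col11a1 (170.8 CPM) took 68.9% of Col5a1 plus Col11a1 UMIs, with an exact 95% interval of 57.1% to 79.2%, and Col3a1 (479.0) took 10.0% of type I plus type III UMIs. Its Col1a1 share of type I UMIs was 41.4% (38.7% to 44.1%), inside the range of the other clusters of that library, 29.7% to 47.4%. No Col11a2 UMI was counted beside 51 of Col11a1, which allows a share of up to 6.98% by the same interval, against 29.3% in tenocyte-like cells of that library. The cells of cluster 14 at 2 weeks, of which 79 of 85 held the cycling gene Mki67, had 11861 CPM of Col1a1, 10302 of Col3a1 and 354.6 of Col11a1, with a Col1a1 share of 54.6%.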
